A study of Mus musculus with 30 samples.

Results

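The red cell microRNAs miR-144, miR-451 and miR-486 were followed through small RNA sequencing of 5 mouse organs. Members were the rows of the authors' tables named Mir144 or Mir451a or starting with Mir486. This gave 3 rows, Mir144, Mir451a and Mir486, of 2194 named rows in each table. Mir144 was well measured in every organ, Mir486 had few counts, and Mir451a was listed at 0 in all 5 organs. The samples were Ftsj1_DF mice, deficient in the tRNA methyltransferase Ftsj1, and WT mice. There were 3 mice of each genotype, all male and 4 months old, and brain, heart, kidney, liver and spleen of each mouse gave 30 libraries. The mice came from a pair of sibships that each held both genotypes, and no treatment was given. How Ftsj1 was disrupted is not given in the sources used here, and neither is whether blood was flushed from the organs. The series asks how Ftsj1 deficiency affects non-coding RNA across organs, and here the level of red cell microRNAs and its genotype contrast are described.

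miR-144 and miR-451 are cut from a shared primary transcript that the erythroid factor GATA1 switches on as red cells mature. miR-451 is known for its biogenesis, in which its short hairpin skips Dicer and is sliced by Argonaute2, and for its part in protecting red cells from oxidative stress. miR-486 is encoded within Ank1, the gene of the erythroid ankyrin, and is known in red cells and also in heart and skeletal muscle. Because mature red cells keep these microRNAs in large amounts, their level in a solid organ is often read as a sign of the blood the sample holds.

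RefSeq sequences (GRCm38.p6) were matched for 2 of the 3 members and are shown because the position of the hairpins bears on the values below. In the hairpins, capitals mark the mature microRNAs.
Mir144: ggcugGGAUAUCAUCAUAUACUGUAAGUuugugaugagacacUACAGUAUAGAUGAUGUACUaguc
Mir451a: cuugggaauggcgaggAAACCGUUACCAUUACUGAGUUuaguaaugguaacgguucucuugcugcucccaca
Mir451b: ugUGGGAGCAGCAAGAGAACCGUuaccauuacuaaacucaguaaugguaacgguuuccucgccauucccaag
Mir144 lies at chr11:78073005-78073070 on the plus strand of GRCm38.p6, and Mir451a follows it at chr11:78073170-78073241, after 99 bases. Mir451b is annotated over the same 72 bases as Mir451a, on the minus strand, and all 72 bases of the Mir451a hairpin equal the reverse complement of the Mir451b hairpin. The mature miR-451a fills bases 17 to 38 of its hairpin. The tables give 1 value per hairpin and do not separate its arms.

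The seeds (bases 2 to 8, in capitals) of miR-144-5p, miR-144-3p and miR-451a differ.
mmu-miR-144-5p: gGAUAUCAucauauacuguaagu
mmu-miR-144-3p: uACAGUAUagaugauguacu
mmu-miR-451a: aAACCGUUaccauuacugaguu
No other mature microRNA of the tables' rows with a RefSeq sequence had any of these 3 seeds. Over bases 2 to 7 alone, miR-144-3p shared its seed with 1 other, miR-101a-3p.
mmu-miR-101a-3p: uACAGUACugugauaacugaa

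Mir451a was listed at 0 in brain, heart, kidney, liver and spleen, and so was Mir451b, in the authors' deposited tables. Mir3107, which RefSeq synonyms name mir-486b and which is annotated on the minus strand within the span of Mir486, was also listed at 0 in all 5 organs. These rows share a position in the annotation. Of 1174 microRNA rows matched to RefSeq, 25 lie wholly within the span of another row, and 25 of these 25 were listed at 0 in all 5 organs. Of the 21 rows that another row covers in part, 1 was listed at 0 in all 5 organs, and of the 1128 rows with no overlap 107 were, or 9.49%. Mir451a is wholly covered, Mir486 is covered over 70.3% of its 128 bases by Mir3107, and Mir144 overlaps no other row. The wholly covered rows include Mir24-1 and Mir30e, hairpins of microRNAs that most cells use, so a 0 here is a listed value and gives no upper limit for miR-451a. How reads that match overlapping genes were counted is not given in the sources used here, and its part in these zeros was not tested. No fold change and no ratio of Mir144 to Mir451a could be formed.

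**Figure D1:**
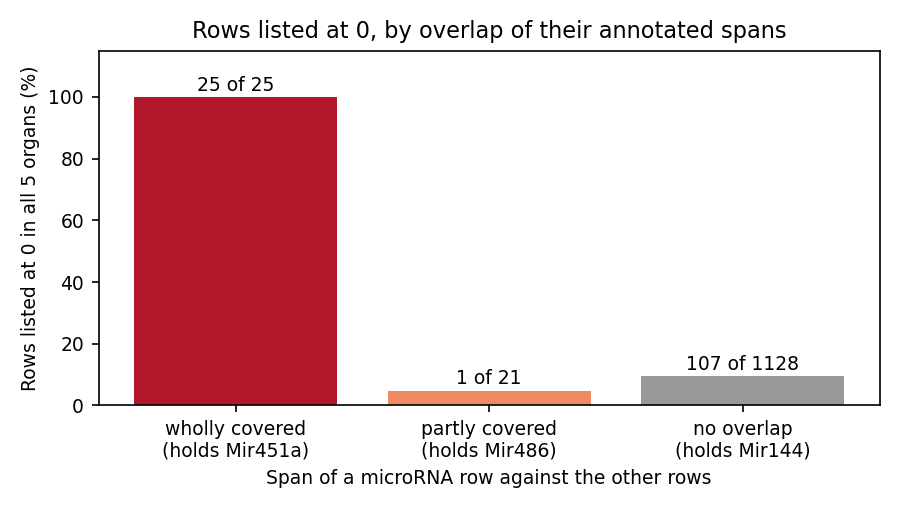
Percent of microRNA rows listed at 0 in all 5 organs, for rows whose annotated span another row covers wholly (25 of 25, Mir451a among them), partly (1 of 21, with Mir486 in this class) or not at all (107 of 1128, with Mir144 in this class). Spans are from RefSeq on GRCm38.p6, and bars start at 0.

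Mir144 was highest in heart and lowest in brain. The level is given as the percent of the summed mean normalized counts of an organ. Its 95% interval follows from the standard error of the deposited fold change. It covers the spread between libraries within a genotype as the authors' fit assumed it. Mir144 made up 0.228% (0.199% to 0.261%) in heart, where its mean of 19418 normalized counts ranked 51st of 1107 rows above 0. It made up 0.139% (0.115% to 0.17%) in spleen, the organ that clears old red cells and in mice also makes new ones. In liver it made up 0.0891% (0.0615% to 0.129%) and in kidney 0.0808% (0.0617% to 0.106%). Brain held 0.00713% (0.00576% to 0.00882%), with a mean of 1149 normalized counts and rank 205 of 1030. The brain share was 0.0511 of the spleen share and 0.0312 of the heart share, and its interval lay below those of the other 4 organs. The heart interval lay above those of the others. The intervals of spleen and liver overlapped, and so did those of liver and kidney, so the order of these neighbours was not settled. Each organ was normalized on its own, so the order of the levels carries no test, and in whole organs more cells of a type and more of an RNA per cell cannot be told apart.

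Mir144 stayed highest in heart and lowest in brain under every scaling tried, while the middle of the order did not hold. Heart stood at 1.64 times spleen by share, 1.31 times without the 10 most abundant features and 1.30 times by the deposited means. Intervals were formed for shares alone, so whether heart stands clear of the others under the other scalings was not tested. With organs scaled by the median of ratios instead of the total, Mir144 stood 1.36-fold higher in liver than in spleen, against 0.639 by share. Both scalings differed most in liver, where Mir122, the hepatocyte microRNA, made up 26.2% of the total, and its part in this difference was not tested.

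**Figure D2:**
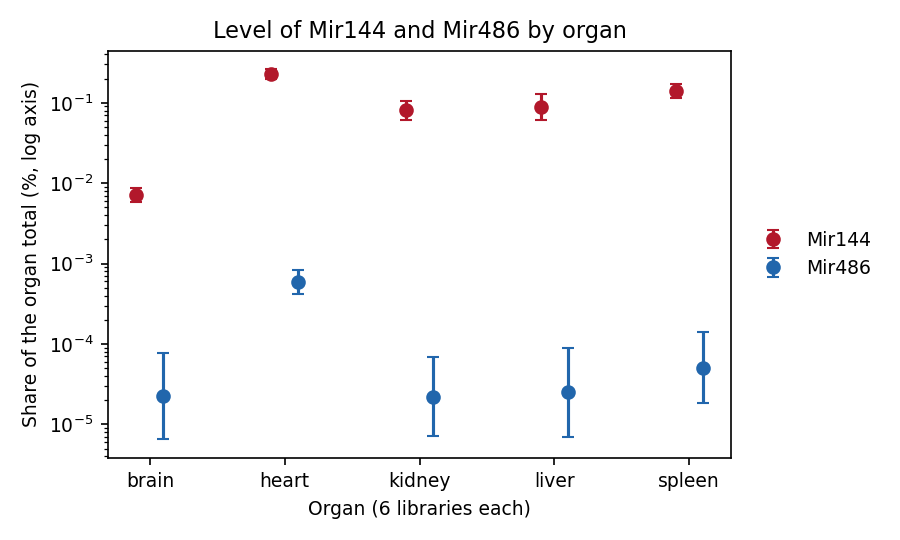
Share of the organ total in percent on a log axis for Mir144 and Mir486 in the 5 organs, as the mean over 6 libraries with 95% intervals from the deposited standard errors. Mir144 sits at 0.0808% to 0.228% in 4 organs and at 0.00713% in brain, and Mir486 stands out in heart at 0.000597%; Mir451a, listed at 0, cannot be drawn on this axis.

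The white cell microRNAs were highest in spleen. The leukocyte list, whose defining members include Mir150 of lymphocytes and Mir223 of myeloid cells, had 6 rows in the tables, of which Mir142 was listed at 0. These rows summed to 1.62% in spleen, 0.206% in heart, 0.133% in brain, 0.0404% in kidney and 0.0298% in liver. Spleen thus held the largest share of the leukocyte list and heart the largest share of Mir144. In brain the sum rested on Mir342 (0.0734%) and Mir150 (0.0558%). Mir223 made up 0.183% in spleen, 0.0322% in heart, 0.0135% in liver, 0.0102% in kidney and 0.00210% in brain, so brain was lowest for it as for Mir144. Mir126a, the endothelial microRNA, made up 5.31% in heart, 2.79% in kidney, 1.80% in liver, 1.40% in spleen and 0.656% in brain, so heart was highest and brain lowest for it as for Mir144. Mir126b, which covers 79.5% of the span of Mir126a, was listed at 0 in all 5 organs, and the part of this overlap in the Mir126a level was not tested. The part of blood and of vessels in the Mir144 level was not tested either.

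The features whose levels over the 5 organs lay closest to those of Mir144 were Mir199a-2, Mir214, Mir199a-1, Mir152 and Mir199b, of 325 ranked. Closeness is the distance between log2 shares centred on their mean over organs. It was 1.14 for Mir199a-2 and 1.21 for Mir214, which share a primary transcript and mark fibroblasts and other mesenchymal cells, and 1.56 for Mir152 and Mir199b. Pearson correlations over these 5 organs were 0.916 to 0.962. Mir199a-2 made up 0.0801% in heart, 0.0648% in spleen, 0.0623% in kidney, 0.0236% in liver and 0.00303% in brain. It was highest in heart and lowest in brain, as Mir144 was.

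Mir486 had few counts and was highest in heart. Whole reads per library were recovered from the deposited means. The numerator genotype of the fold change is not named, so libraries are grouped by direction: a positive side of the 3 libraries that raise it and a negative side of the 3 that lower it. In heart the positive side held 31, 25 and 140 reads of Mir486, and the negative side 38, 28 and 140. After division by size factors, heart libraries of the positive side had 51.3, 36.1 and 59.2 normalized counts and those of the negative side 59.2, 38.0 and 61.3. The sides overlapped, and the 402 heart reads came from all 6 libraries. In brain the positive side held 3, 0 and 4 reads and the negative side 3, 6 and 4. In kidney these were 3, 6 and 11 reads on the positive and 1, 5 and 6 on the negative side. In liver there were 6, 0 and 4 reads on the positive and 3, 7 and 9 on the negative side. In spleen there were 6, 0 and 6 reads on the positive and 9, 6 and 5 on the negative side. The other 4 organs thus had 20 to 32 reads each, and 1 library without a read in brain, liver and spleen each.

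Over the 6 libraries of an organ, Mir486 averaged 50.8 ± 11.2 normalized counts in heart, 5.41 ± 3.89 in spleen, 4.82 ± 2.24 in kidney, 4.72 ± 4.08 in liver and 3.63 ± 2.65 in brain (SD, n = 6 each). The lowest heart library, at 36.1, lay above the highest library of any other organ, at 12 in liver. By share of the total, heart held 11.8 times the Mir486 of spleen and 24.0 times that of liver. Among spleen, kidney, liver and brain the libraries overlapped, and their order was not settled at this depth. Striated muscle microRNAs such as Mir1a-1 and Mir133a-1, counted beside it, made up 11.6% in heart and at most 0.0332% in the other organs. The part of muscle cells in the Mir486 level was not tested, and neither was the part of the overlap with Mir3107 in its low count.

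**Figure D3:**
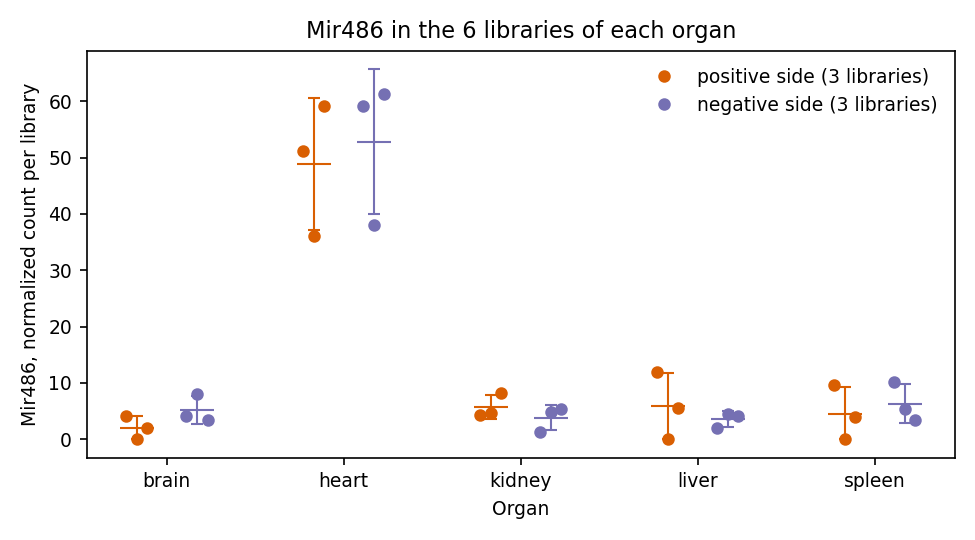
Normalized counts of Mir486 in each of the 6 libraries of an organ, with the 3 libraries that raise the deposited fold change (positive side) left of the other 3 (negative side). Bars give the mean and SD of 3 libraries, with the lower end stopped at 0; all heart libraries lie between 36.1 and 61.3, and those of the other organs between 0 and 12, and the sides overlap in every organ.

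Set against each other, the members did not keep a fixed ratio. Per 1000 normalized counts of Mir144, those of Mir486 numbered 3.16 in brain, 2.62 in heart, 0.362 in spleen, 0.279 in liver and 0.274 in kidney. The ratio, for which no interval was formed, was higher in heart and brain than in the other 3 organs. In brain this rests on 20 reads of Mir486 and on the low level of Mir144. The Mir486 share in brain was 2.25e-05% (95% interval 6.51e-06% to 7.79e-05%), against 2.21e-05% in kidney. In heart both members were at their highest share. The ratios were not corrected for the lengths of the spans, which are the same in every organ. The part of the overlap of Mir486 with Mir3107 in them was not tested.

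Neither measured member passed the genotype test in any organ. The test was the authors' DESeq2 Wald test at an adjusted p of 0.05, with 2 members tested per organ. In heart 0 of 2 passed, against 1.13% of all 355 features with an adjusted p. In liver 0 of 2 passed, against 0.229% of 872 features, and in brain, kidney and spleen 0 of 2 passed, against 0% of 1030, 1022 and 1208 features. At an unadjusted p under 0.05, 0 of the 2 members passed in any organ either, against 5.33% of all features in heart, 4.5% in kidney, 3.9% in liver, 3.48% in spleen and 2.23% in brain. With shares this low, 0 of 2 says little about the members. A miss does not show equal levels, so the intervals are given.

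The fold change of Mir144, 1 genotype over the other with the numerator not named, was 1.16 in heart (95% interval 0.886 to 1.52; adjusted p 0.733 by DESeq2 in the authors' deposited table). In spleen it was 0.856 (0.578 to 1.27; adjusted p 0.988) and in brain 0.912 (0.595 to 1.40; adjusted p 0.989), by DESeq2 in the authors' deposited tables. The kidney value was 1.25 (0.728 to 2.14; adjusted p 0.975) and the liver value 1.28 (0.612 to 2.70; adjusted p 0.991), by DESeq2 in the authors' deposited tables. The sign was positive in heart, kidney and liver and negative in brain and spleen. Heart gave the narrowest interval and liver the widest.

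The same standard errors carry the spread between libraries that the authors' fit assumed, which can differ from the measured spread. For Mir486 in heart they imply a coefficient of variation of 43.0%. Its recovered heart libraries had an SD of 11.2 around a mean of 50.8. For Mir144 the standard errors imply 16.8% in heart, 24.6% in spleen, 26.7% in brain, 33.6% in kidney and 46.4% in liver, and its measured spread could not be had. Features within 2-fold of its mean had a median of 19.0% in heart, 19.6% in spleen, 26.2% in brain, 28.8% in kidney and 30.5% in liver. In liver the standard error of Mir144 was larger than that of 85.7% of 35 such features, in spleen than that of 81.0% of 42, and in heart than that of 9.09% of 22. The sides differed in depth in liver. Its positive side had size factors from 0.5 to 0.729, against size factors from 1.45 to 2.15 for its negative side, and the part of depth in the liver value of Mir144 was not tested. Heart, kidney and liver each hold 1 WT library of batch 2 by the labels, which could not be singled out in the tables, so no within-batch value of Mir144 could be had.

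**Figure D4:**
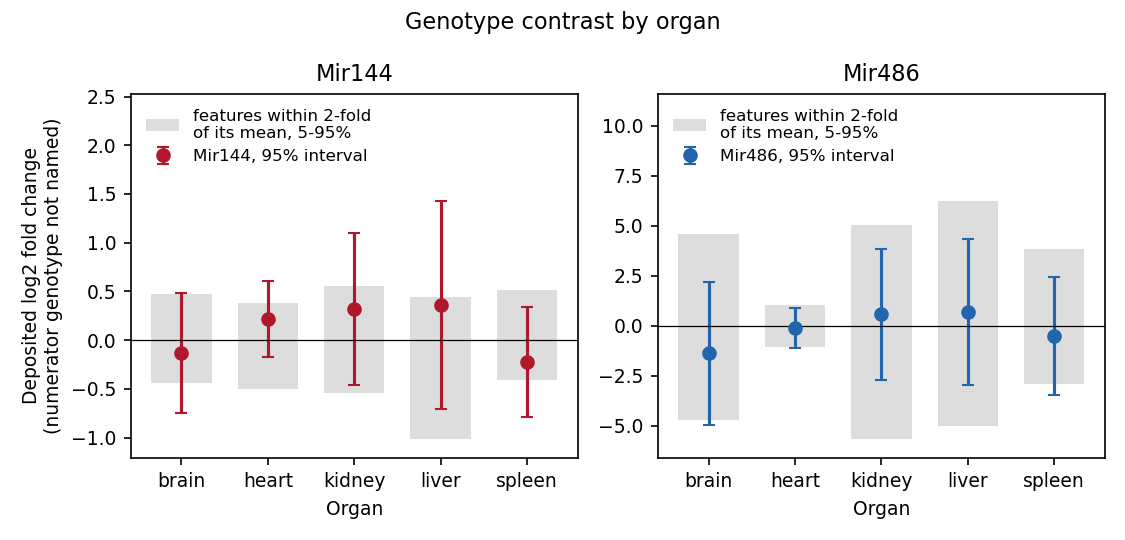
Deposited log2 fold change between the genotypes with its 95% interval for Mir144 (left) and Mir486 (right, wider axis) in the 5 organs, with grey bars from the 5th to the 95th percentile of the fold changes of features within 2-fold of the member's mean. All 10 intervals include 0, and the Mir144 values run from -0.22 in spleen to 0.36 in liver.

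Mir486 had log2 fold changes of -0.11 (standard error 0.51) in heart, -0.50 (1.5) in spleen, -1.37 (1.83) in brain, 0.58 (1.67) in kidney and 0.68 (1.87) in liver in the authors' deposited tables, with DESeq2 adjusted p from 0.975 to 0.997. From the recovered reads, the positive side averaged 48.9 ± 11.7 and the negative side 52.8 ± 12.9 normalized counts in heart (SD, n = 3 each; exact two-sided permutation p = 0.6). In the other organs the exact permutation p was 0.3 in brain, 0.6 in kidney, 0.7 in liver and 0.6 in spleen, where 3 libraries a side allow no p below 0.1. The sides overlapped in all 5 organs. The 95% interval of the fold change was 0.466 to 1.85 in heart, and in liver it ran from 0.126 to 20.3.

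The contrast of the members was not shown to differ between organs. Across the organs the deposited DESeq2 fold changes of Mir144 gave a Cochran Q of 2.66 on 4 degrees of freedom (adjusted p = 0.9998 over 648 features), and those of Mir486 a Q of 0.895 (adjusted p = 0.9998). The share of features past an adjusted p of 0.05 in this test was 0%, and 19 of the 648 had an unadjusted p under 0.05. The precision-weighted mean over organs was a log2 fold change of 0.08 (standard error 0.13) for Mir144 and -0.12 (standard error 0.43) for Mir486. Among the 10 pairs of organs the largest gap for Mir144 was liver minus spleen, a log2 difference of 0.59 (95% interval -0.63 to 1.80). The smallest p of the 10 was 0.211, for heart minus spleen, and 0 pairs passed after adjustment over all features. The same 6 mice gave all organs, which this test treats as independent.

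Features whose 5 fold changes lay closest to those of Mir144 were Mir487b, Mir30a, Mir101a, Mir411 and Mir598, at distances of 0.298 to 0.362 on the log2 scale. The standard errors of the 5 log2 fold changes of Mir144 itself ran from 0.198 in heart to 0.546 in liver. Mir101a, whose 3p arm shares bases 2 to 7 with miR-144-3p, had log2 fold changes of 0.38 in heart, 0.33 in kidney, 0.07 in liver, -0.21 in spleen and -0.03 in brain, as the authors' deposited tables give them, with DESeq2 adjusted p from 0.510 to 0.991. Its share of the total was 0.753% in kidney, 0.417% in brain, 0.360% in liver, 0.344% in spleen and 0.244% in heart. Heart was thus the organ where Mir101a was lowest and Mir144 highest. For Mir486 the closest in fold change were Mir182, Gm54609, Mir128-2, Mir26a-2 and Mir32, at distances of 0.976 to 1.11. The closest to it by level were Mir378b, Mir1943, Mir378d, Gm54396 and Mir23a, at 1.78 to 2.23. The 325 features ranked have a mean of at least 10 in every organ, a level that Mir486 itself reached in heart alone. The features named changed with the way of ranking. By Pearson r, 4 of the 5 by level and 1 of the 5 by fold change were shared for Mir144. For Mir486, 0 of the 5 by level and 2 of the 5 by fold change were shared.

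Other microRNAs known from red cells and their precursors were counted beside the members. The list had 24 rows, members included, of which Mir451a, Mir451b, Mir3107 and Mir191 were listed at 0 in all 5 organs and 20 had a fold change. Of these 20, 0 passed in any organ by DESeq2 in the authors' deposited tables, against 0% to 1.13% of all features with an adjusted p. In heart, Mir20b, Mir106a and Mir363 had no adjusted p and so could not pass. At an unadjusted p under 0.05, 0 of the 20 passed either, against 2.23% to 5.33% of all features. In heart 17 of the 20 had a positive sign, with a median log2 fold change of 0.15, against 57.9% positive and a median of 0.16 over all 1107 features with a fold change. Among features with a mean of at least 10 in heart, a minimum added after the values were seen, 15 of 18 list rows were positive with a median of 0.11, against 48.2% positive and a median of -0.01 over all 427. In spleen 17 of the 20 had a negative sign, with a median of -0.13, against 50.1% positive and a median of 0.00 over all 1208 features. With the same minimum in spleen, 16 of 19 list rows were negative with a median of -0.13, against 49.8% positive over all 450. Positive signs were 7 of 20 in brain (median -0.12), against 49.2% of all features (median -0.01). In kidney they were 12 of 20 (median 0.16), against 51.7% of all features (median 0.04). In liver they were 10 of 20 (median -0.02), against 52.3% of all features (median 0.07). Several of these hairpins share a primary transcript and all share the libraries, so the signs are not separate observations.

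The most abundant row of that list was Mir16-2 in spleen, heart, kidney and liver, and Mir182 in brain. Mir16-2, of the miR-15/16 family that restrains the cell cycle, made up 1.54% in spleen, 0.774% in heart, 0.709% in kidney and 0.597% in liver. Its log2 fold changes in these organs were -0.10 (standard error 0.21) in spleen, 0.09 (0.19) in heart, 0.33 (0.35) in kidney and -0.10 (0.27) in liver in the authors' deposited tables. Mir92-1, of the miR-17/92 cluster, made up 1.25% in spleen, 0.485% in heart and 0.453% in liver, and Mir16-1 made up 0.436% in kidney. Their log2 fold changes were -0.20, 0.00 and -0.08 for Mir92-1 in spleen, heart and liver and 0.35 for Mir16-1 in kidney in the authors' deposited tables. In brain, Mir182 and Mir183, which are known from sensory neurons and retina as well, led the list at 1.44% and 1.05%, with log2 fold changes of -0.59 (standard error 0.34) and -0.62 (0.36) in the authors' deposited table. The list summed to 5.57% in spleen, 3.61% in brain, 2.53% in heart, 2.09% in kidney and 1.97% in liver, but without Mir182 and Mir183, a choice made after the values were seen, brain was lowest at 1.13%, below liver at 1.87%. Of the leukocyte list, 0 of 5 rows with a fold change passed in any organ, against 0% to 1.13% of all features with an adjusted p. In heart, Mir146b of this list had no adjusted p and so could not pass. With shares this low, 0 of 5 says little about these rows. Mir150 alone had an unadjusted p under 0.05, in heart, where 5.33% of all features did. Its log2 fold change there was -0.51 (standard error 0.23), with an adjusted p of 0.317 by DESeq2 in the authors' deposited table.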

How the data were processed

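The study used the NEXTflex small RNA-Seq kit on RNA from pulverised organs, per the labels' protocols. The submitters' processing notes name featureCounts (Subread 2.0.3), the build GRCm39 and DESeq2. Aligner, annotation, strand setting, handling of overlapping genes and the model fitted were not given in the sources used here. The authors deposited 1 table per organ. Per the file headers, its mean is a signal, namely counts divided by size factors and averaged over the 6 libraries. Fold changes and standard errors were deposited as log2 values, and the Wald statistic is a score, per the file headers. A p-value and an adjusted p-value stand beside it, as deposited. No column of single libraries was left unused (0 such columns). The 1 row with no name was left out, and its share was 1.82e-05% or less in every organ. Mean normalized counts summed to 8511372 in heart, the least, and 21787131 in kidney, the most.

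The design assumed the authors' adjusted p at 0.05 where no counts per library were given, and this was used. The members and lists were chosen with earlier results of these data known. Means under 1 gave the 6 size factors of an organ, which fitted 220 to 330 of the low means (tolerance 1e-11; in heart 323 of 355). Mir486 was then split into whole reads at a relative tolerance of 1e-14, with 1 solution per organ, and the libraries were put on 2 sides by the deposited fold changes of 60 low features. For these features the median gap between recovered and deposited log2 values was 0.152 in heart and 0.0178 to 0.0656 in the other organs. The libraries were not assigned to mice or genotypes. Reads of Mir144 were too many to split. The coefficient of variation between libraries assumes 3 libraries a side. Cochran's Q and differences between organs used deposited fold changes and standard errors, with Benjamini-Hochberg adjustment over all features. Named features were the members, rows within 10 kb or tied to miR-486 by RefSeq synonyms, the 5 closest by level and by fold change among features with a mean of at least 10 in all organs, and the 2 most abundant of the red cell and leukocyte lists. Sequences and spans are RefSeq's on GRCm38.p6 and were used for sequence and overlap only. Strands of Mir486 and Mir3107 are from GENCODE M21. Other marker lists were the neuron list (21.0% of the total in brain), striated muscle, Mir122, kidney (24.2% in kidney), smooth muscle (25.7% in spleen), endothelium and pancreas (0.322% in spleen). Python 3.11.15, pandas 2.3.3 and scipy 1.17.1 were used. The split of means into reads was tested on simulated data with the size factors of spleen and few reads per library. The read numbers of heart were not simulated, so this test does not cover the heart split. The Q test was tested on simulated data too, and the other steps were not. Intervals cover library spread as the authors' fit assumed it, and 3 libraries per genotype limit the precision.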

Additional observations from a re-analysis of the deposited data

How the results depend on the processing

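Levels relative to spleen were recomputed under 4 other scalings. Mir144 in brain was at log2 -4.29 over spleen by share, -4.94 without the 10 most abundant features, -4.79 with the median of ratios and -3.70 with the deposited means. In heart it was 0.71 by share, 0.38 without the 10 most abundant features and 0.38 with the deposited means. The sign turned in kidney with the deposited means (-0.79 by share, 0.23), and in liver with the median of ratios (-0.65 by share, 0.44) and the deposited means (0.17). Mir486 in liver turned with the median of ratios (-1.02 by share, 0.069). The cause was not tested. The other 23 of 32 values moved by less than the spread between libraries.

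No genotype contrast of Mir144 or Mir486 changed sign or passed under the other adjustments, with adjusted p from 0.754 to 0.993, or relative to the median fold change. The difference between organs had adjusted p from 0.645 to 0.9999 under its 13 alternatives. Leaving out each library in turn moved the log2 side ratio of Mir486 within -2.32 to -0.75 in brain, -0.30 to 0.064 in heart, 0.17 to 0.90 in kidney, -0.39 to 1.28 in liver and -1.68 to 0.093 in spleen. The sign turned with 2 libraries in heart (0.064 and 0.0075), 1 in liver and 2 in spleen (0.033 and 0.093). For Mir144 no library could be left out. By Pearson r in place of the distance, 1 of the 5 features closest to Mir144 in fold change was shared, and of those closest to Mir486, 0 by level and 2 by fold change. At a minimum mean of 100, 1 of the 5 closest to Mir486 by level was shared. Without Mir182 and Mir183, chosen after seeing the data, the red cell list in brain summed to 1.13% in place of 3.61%. No paired analysis was possible because the tables hold no values per mouse. The ratio of Mir144 to Mir451a and its version per base were not run, since Mir451a is listed at 0.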

Other observations

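Several other microRNAs lie, like Mir451a, wholly within the span of another row and were listed at 0 in all 5 organs. Among them are Mir142 of blood cells, Mir1a-2 of striated muscle, Mir24-1 and Mir30e, which were chosen after their values were seen. For Mir142, the row on the other strand, Mir142b, held 39411 mean normalized counts in spleen, against 264 in brain, in the authors' deposited tables. Mir451a and Mir451b cover each other wholly, and both held 0 in every organ.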
